A study of Mus musculus with 2 samples.

Results

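The genes described here are 9 costimulatory receptors and ligands of the tumour necrosis factor (TNF) and CD28 families: Tnfrsf4 (OX40), Tnfrsf9 (4-1BB), Tnfrsf18 (GITR), Icos, Cd28, Cd40lg, Tnfsf4 (OX40 ligand), Tnfsf9 (4-1BB ligand) and Icosl (ICOS ligand). They were chosen by symbol, and all 9 were found among the 32285 genes of the deposited matrices. CD45+ immune cells were sorted from day 15 tumours grown from B16-hAXL, a derivative of the mouse melanoma line B16, in mice of genotype WT; the labels give no strain, sex or age. One group received PBS i.p. and the other 200 µg of 6C5, an anti-AXL antibody, by the same route. Each group gave 1 single-cell library, and how many mice were pooled for it is not stated in the labels. No difference between the groups therefore has a replicate check, and library and treatment cannot be told apart. Every interval below is a 95% interval for counting error only, and no p-value is given.

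A T cell that sees antigen needs a second, costimulatory signal. CD28 delivers it to resting T cells through CD80 and CD86 and activates phosphoinositide 3-kinase and protein kinase C theta. ICOS, a relative of CD28 induced after activation, binds ICOS ligand on antigen-presenting cells. OX40, 4-1BB and GITR are TNF-receptor family members induced by activation, held constitutively by many regulatory T cells, and they signal through TRAF adaptors to NF-kappaB. CD40 ligand, shown mainly by activated CD4 T cells, acts the other way, on CD40 of dendritic cells, macrophages and B cells.

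The libraries held 78923567 UMIs (PBS) and 85921419 UMIs (6C5), a UMI being a counted RNA molecule. Cells were clustered without the 9 genes or the list genes and named, with the suffix "-like", from marker lists; 4229 PBS cells and 4771 6C5 cells received a name. A further 7874 and 6953 barcodes stayed unnamed, most of them close to free RNA in profile, and 323 and 350 were left out because they mixed markers of lineages. Ptprc, which encodes CD45, lay at 202 to 1343 CPM (UMIs of a gene per 1000000 UMIs of the class) in the 12 immune classes compared, against 8.69 and 8.54 CPM in melanoma-like cells (180 and 401), which the sort should have removed. The median mitochondrial share was lower in 6C5 in each of the 12 classes, and its part in the results was not tested. Barcodes shared by the libraries numbered 295 at 500 UMIs or more and 36 among named cells. In bulk sums of a class, fewer expressing cells and less RNA per cell cannot be told apart.

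The position of the genes is shown first, with the DNA upstream of the receptors found highest in regulatory T-like cells and of Icosl. On mm10 (GRCm38), Tnfrsf4 occupies chromosome 4 from 156013843 to 156016612 and Tnfrsf18 lies 9551 bases further on, from 156026164 to 156028895, both on the plus strand. Tnfrsf9 is on the same chromosome from 150914562 to 150946102. Cd28 (chromosome 1, 60716800 to 60773359), Ctla4 (60887000 to 60915832) and Icos (60977927 to 61000320) stand in a row on the plus strand, with 113640 and 62094 bases between neighbours. Tnfsf4 is on chromosome 1 from 161395409 to 161418410, Tnfsf9 on chromosome 17 from 57105325 to 57107757, Icosl on chromosome 10 from 78069302 to 78083913 and Cd40lg on chromosome X from 57212143 to 57224042. The RefSeq promoter table (GRCm38.p6) matched 4 of the 9 genes. The stretches below, plus strand, end before the first annotated exon they meet or at the RefSeq start, and capitals mark a kappaB, AP-1 or TATA-box match on either strand.
Tnfrsf4, chr4:156013445-156013694, upstream of the gene: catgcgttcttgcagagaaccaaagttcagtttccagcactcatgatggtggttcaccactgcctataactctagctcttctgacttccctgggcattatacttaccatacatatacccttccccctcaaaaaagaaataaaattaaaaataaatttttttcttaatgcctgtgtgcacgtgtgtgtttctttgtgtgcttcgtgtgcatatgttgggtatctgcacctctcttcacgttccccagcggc
Tnfrsf18, chr4:156026072-156026163, upstream of the gene: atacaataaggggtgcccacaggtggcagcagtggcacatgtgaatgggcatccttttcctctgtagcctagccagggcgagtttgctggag
Tnfrsf9, chr4:150919905-150920154, within an annotated intron of the gene and before a RefSeq start: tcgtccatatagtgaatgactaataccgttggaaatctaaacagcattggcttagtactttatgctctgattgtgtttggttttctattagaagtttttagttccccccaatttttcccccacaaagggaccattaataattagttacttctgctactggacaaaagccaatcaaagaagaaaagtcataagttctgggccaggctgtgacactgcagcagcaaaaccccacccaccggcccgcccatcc
Icosl, chr10:78069118-78069301, upstream of the gene: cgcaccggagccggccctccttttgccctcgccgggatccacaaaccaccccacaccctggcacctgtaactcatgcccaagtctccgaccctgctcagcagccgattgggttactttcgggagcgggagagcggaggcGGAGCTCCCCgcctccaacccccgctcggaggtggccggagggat
In the whole 300-base windows, no kappaB or AP-1 match was found for Tnfrsf4 or Tnfrsf18. Tnfrsf9 has another RefSeq start at which overlapping kappaB matches (GGGGATTTCC and GGGATTTCCC) begin 43 and 42 bases before the start and an AP-1 match (TGAGTCA) begins 15 bases before it. An annotated exon of the gene begins 81 bases before that start, so these matches lie past the beginning of that exon. Icosl has 1 kappaB match (GGAGCTCCCC). A kappaB match occurred in 8.46% of all 32851 windows and an AP-1 match (TGANTCA, N being any base) in 7.81%. The TATA box searched was TATAAA, present in 13.6% of windows. The windows had GC contents of 43.7% for Tnfrsf4, 55.3% for Tnfrsf18 and 68.0% for Icosl, against a median of 52.7%. These are letter matches and were not tested as binding sites.

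Among the 12 classes compared, Tnfrsf4, Tnfrsf9, Tnfrsf18 and Icos were highest in both libraries in regulatory T-like cells, a cluster with Foxp3, Ccr8 and Il2ra among its leading genes (40 PBS and 63 6C5 cells). Tnfrsf4 stood at 1141 CPM in PBS (interval 1039 to 1250, 459 UMIs) and at 1315 CPM in 6C5 (1234 to 1400, 977 UMIs), a ratio 6C5 over PBS of 1.15 (1.03 to 1.29). Tnfrsf18 stood at 721 and 740 CPM, a ratio of 1.03 (0.889 to 1.19). Both are known on regulatory T cells, where their antibodies are used to alter suppression. Tnfrsf9 was at 900 and 1022 CPM. Icos was at 383 CPM in PBS and 540 CPM in 6C5, a ratio of 1.41 (1.17 to 1.71) that stayed under the 1.5-fold used as the call here. On the log2 scale this difference of 0.495 became 0.622 with TMM scaling, which is past that fold, and -0.0375 when each library was clustered on its own. Tnfrsf4 (-0.0344), Tnfrsf9 (-0.203) and Tnfrsf18 (-0.408) were also lower in 6C5 in that clustering. Cd28 was at 159 and 199 CPM, with intervals that overlapped. So 0 of the 5 members with at least 30 UMIs over both libraries passed 1.5-fold in regulatory T-like cells, where 18.5% of all genes did, 7.58% upward and 11.0% downward. The T marker list summed to 4818 CPM in both libraries and the regulatory T list to 3127 CPM in PBS and 2410 CPM in 6C5. In this class the NK list went from 221 to 52.5 CPM, the macrophage list from 316 to 98.2 CPM and the monocyte list from 331 to 791 CPM. Free RNA was estimated at 3.61% and 0.816% of the class. The part of these in the result was not tested.

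Regulatory T-like cells carried these receptors together. At full depth, 36 of 40 PBS cells and 61 of 63 6C5 cells had a Tnfrsf4 UMI, and 22 (55.0%) and 38 (60.3%) had UMIs of all 5 receptors Tnfrsf4, Tnfrsf9, Tnfrsf18, Icos and Cd28. Thinned to 1000 UMIs per cell, which makes depths equal, 59.0% (interval 42.1 to 74.4) of PBS and 68.3% (55.3 to 79.4) of 6C5 cells had a Tnfrsf4 UMI. B-like cells, which should lack it, gave 0 of 246 cells, which allows up to 1.22%, and 1 of 232, at median depths of 2708 and 2455 UMIs against 6288 and 7816 in regulatory T-like cells. Over all named cells, regulatory T-like cells held 47.5% of Tnfrsf4 UMIs in PBS and 60.3% in 6C5, although they were among the smallest classes. Those shares leave out the barcodes with mixed lineage markers, which also carried Tnfrsf4. Among them was a group of 49 PBS and 189 6C5 barcodes from the T and NK clusters that held macrophage markers. With the mixed barcodes in the total, both shares would be lower.

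**Figure D1:**
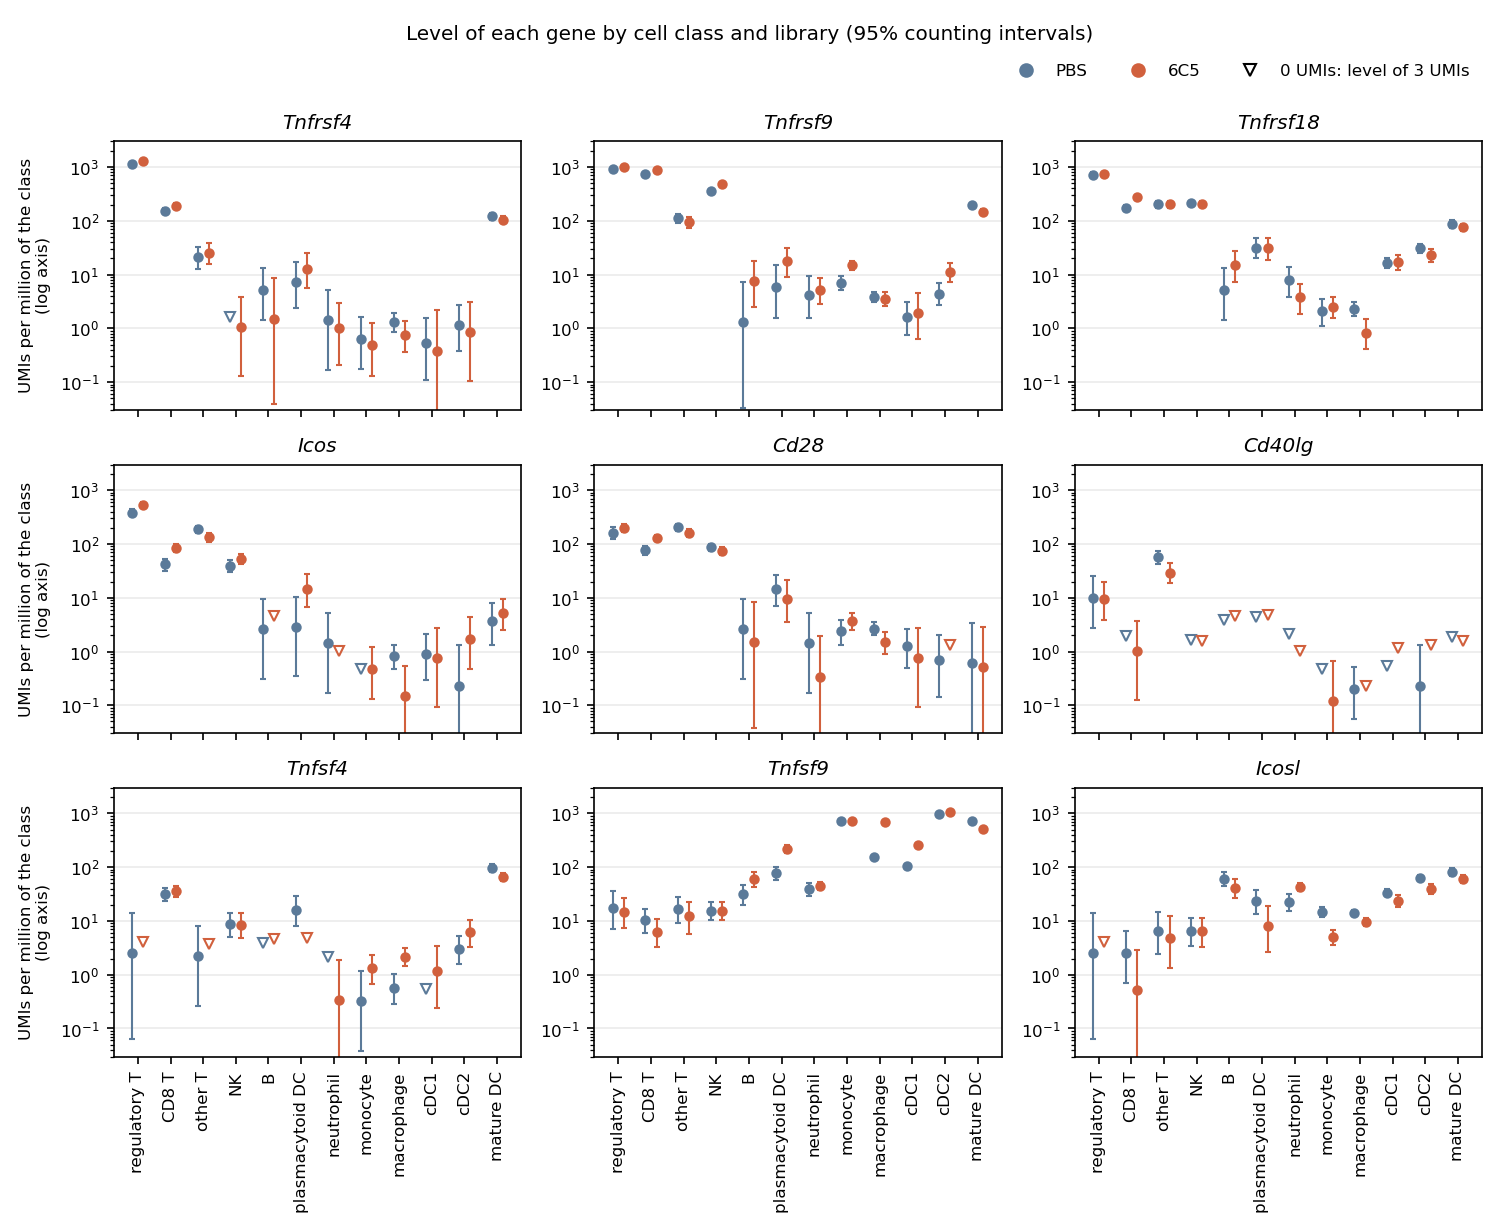
Level of each of the 9 genes (CPM, log axis) in 12 cell classes of the PBS and 6C5 libraries; points are class sums, bars 95% counting intervals, and open triangles mark 0 UMIs, drawn at the level of 3 UMIs; some lower bounds run off the axis. Tnfrsf4, at 1141 and 1315 CPM in regulatory T-like cells, is also seen in CD8 T-like and mature DC-like cells, while Tnfsf9 is high in monocyte-like, macrophage-like and DC classes.

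The order of the classes differed by receptor. For Tnfrsf4, regulatory T-like cells exceeded CD8 T-like cells 7.37-fold (6.30 to 8.65) in PBS and 6.86-fold (6.07 to 7.75) in 6C5, and CD8 T-like cells were followed by mature DC-like cells. NK-like cells had 0 Tnfrsf4 UMIs in PBS and 2 in 6C5 in 281 and 276 cells. For Tnfrsf9, the gap between regulatory and CD8 T-like cells was 1.21-fold (1.07 to 1.36) and 1.15-fold (1.05 to 1.25), with NK-like cells next. Tnfrsf18 in CD8 T-like, other T-like and NK-like cells of PBS lay between 171 and 215 CPM, and neighbours in that order had ratios whose intervals included 1. The ends of that order differed, CD8 T-like over NK-like cells giving 0.80 (0.68 to 0.94) in PBS. In 6C5 that ratio was 1.32 (1.16 to 1.51), the opposite order. Of the 9 members, 8 were highest in the same class in both libraries. The exception was Cd28, highest in other T-like cells in PBS and in regulatory T-like cells in 6C5, with intervals of the ratio between those classes that included 1 in both.

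CD8 T-like cells (81 PBS and 130 6C5 cells, with Cd8a and Cd3e) were the T class with the most members past 1.5-fold, and those were higher in 6C5. Icos, the inducible CD28 relative, was at 41.6 CPM in PBS (65 UMIs) and 85.0 CPM in 6C5 (163 UMIs), 2.04-fold higher (1.52 to 2.77). Cd28 was at 76.8 and 130 CPM, 1.70-fold higher (1.36 to 2.13). Tnfrsf18 was at 171 and 277 CPM, 1.61-fold higher (1.39 to 1.88). These 3 of 6 measured members stand against 11.3% of all genes that passed 1.5-fold upward in this class, 6.73% downward and 18.0% in either direction. Tnfrsf9 (745 and 892 CPM, ratio 1.20), Tnfrsf4 (155 and 192 CPM, ratio 1.24) and Tnfsf4 (31.3 and 35.4 CPM, ratio 1.13) stayed under that fold. The median log2 ratio of all 6 measured members was 0.50, that of all 7939 genes tested 0.03. The macrophage marker list, 11 of 11 genes detected in both libraries, summed to 239 CPM in PBS and 85.0 CPM in 6C5 in this class, and the monocyte list to 805 and 1442 CPM. The NK list went from 586 to 918 CPM and the mature DC list from 58.2 to 153 CPM, lists that also hold genes T cells express; their part in the result was not tested.

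The CD8 T-like class held a subcluster led by Ccl3, Lag3 and Havcr2, genes of chronically stimulated T cells (44 and 96 cells), and a cycling subcluster led by histone genes, Birc5 and Cdk1 (37 and 34 cells). Icos was higher in 6C5 in both, at 49.1 and 98.7 CPM in the Lag3 subcluster and at 36.8 and 63.7 CPM in the cycling one. Cd28 was also higher in both, by 1.55-fold (1.14 to 2.15) and 1.69-fold (1.21 to 2.37). Tnfrsf18 differed by 1.21-fold (0.996 to 1.48) in the Lag3 subcluster and by 1.98-fold (1.56 to 2.52) in the cycling one. Tnfrsf4 went in opposite directions, from 227 CPM in PBS to 174 CPM in 6C5 in the Lag3 subcluster and from 108 to 219 CPM in the cycling one. Whether these ratios differ between the subclusters was not tested. With the subclusters weighted equally, Icos was 1.89-fold, Cd28 1.61-fold and Tnfrsf18 1.47-fold higher in 6C5, the last no longer past 1.5-fold. Thinned to 1000 UMIs, the share of cells with an Icos UMI was 3.70% (0.770 to 10.4) in PBS and 6.92% (3.21 to 12.7) in 6C5, intervals that overlap. For Cd28 the thinned share was 11.1% (5.21 to 20.05) in PBS and 13.85% (8.42 to 21.0) in 6C5. For Tnfrsf18 it was 18.5% (10.75 to 28.7) and 20.8% (14.2 to 28.8), and these intervals overlap as well.

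Other T-like cells, which held both Cd4 and Cd8 cells (188 and 192), held most of the CD40 ligand RNA. Cd40lg was at 57.4 CPM in PBS (52 UMIs) and 29.2 CPM in 6C5 (24 UMIs), a ratio of 0.509 (0.300 to 0.840), the only one of 6 measured members past 1.5-fold, against 11.9% of all genes lower by that fold, 5.51% higher and 17.4% in either direction. The macrophage marker list (11 and 9 of 11 genes detected) summed to 524 CPM in PBS and 202 CPM in 6C5 in this class, the cDC2 list to 41.9 and 12.2 CPM and the mature DC list to 184 and 334.5 CPM, and their part in the result was not tested. This class gave 82.5% of all Cd40lg UMIs in named PBS cells and 66.7% in 6C5. Icos (188 and 135 CPM) and Cd28 (206 and 158 CPM) had ratios of 0.720 and 0.766, and Tnfrsf18 was at 204 and 202 CPM. Split by Cd4 and Cd8 UMIs per cell, the PBS Cd4-gated cells (24) held 315 CPM of Cd40lg (34 UMIs) and the Cd8-gated cells (74) 4.74 CPM (2 UMIs). The 6C5 Cd4-gated cells (17) held 178 CPM (11 UMIs), a ratio of 0.565 to PBS whose interval, 0.258 to 1.14, included 1. Icos was 2.99-fold (2.02 to 4.40) higher in Cd4-gated than in Cd8-gated cells of PBS and 3.09-fold (1.81 to 5.12) in 6C5, and Cd28 was 2.29-fold and 2.50-fold higher.

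NK-like cells (281 and 276), which use 4-1BB as an activation receptor, had Tnfrsf9 at 355 CPM in PBS and 489 CPM in 6C5, a ratio of 1.38 (1.24 to 1.53). Tnfrsf18 was at 215 and 209 CPM and Cd28 at 86.0 and 74.7 CPM. None of the 6 measured members passed 1.5-fold in NK-like cells, where 12.2% of all genes did, 4.37% upward and 7.86% downward. Within the class, Tnfrsf9 was higher in subclusters led by Gzmc, a granzyme of activated NK cells, than in the others, by 3.38-fold (2.84 to 4.04) in PBS and 1.86-fold (1.61 to 2.14) in 6C5. Between the libraries it stood at 589 and 619 CPM in the Gzmc-led subclusters and at 174 and 333 CPM in the others, ratios of 1.05 (0.931 to 1.19) and 1.91 (1.58 to 2.32). That ratio was 3.16 (1.92 to 5.43) in the subcluster led by Lrmda and Angpt1 (45 and 53 cells). A group of 14 and 13 cells led by Il17a and Tcrg-V6, too few for the comparison, had Icos at 592 CPM (40 UMIs) and 783 CPM (35 UMIs).

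**Figure D2:**
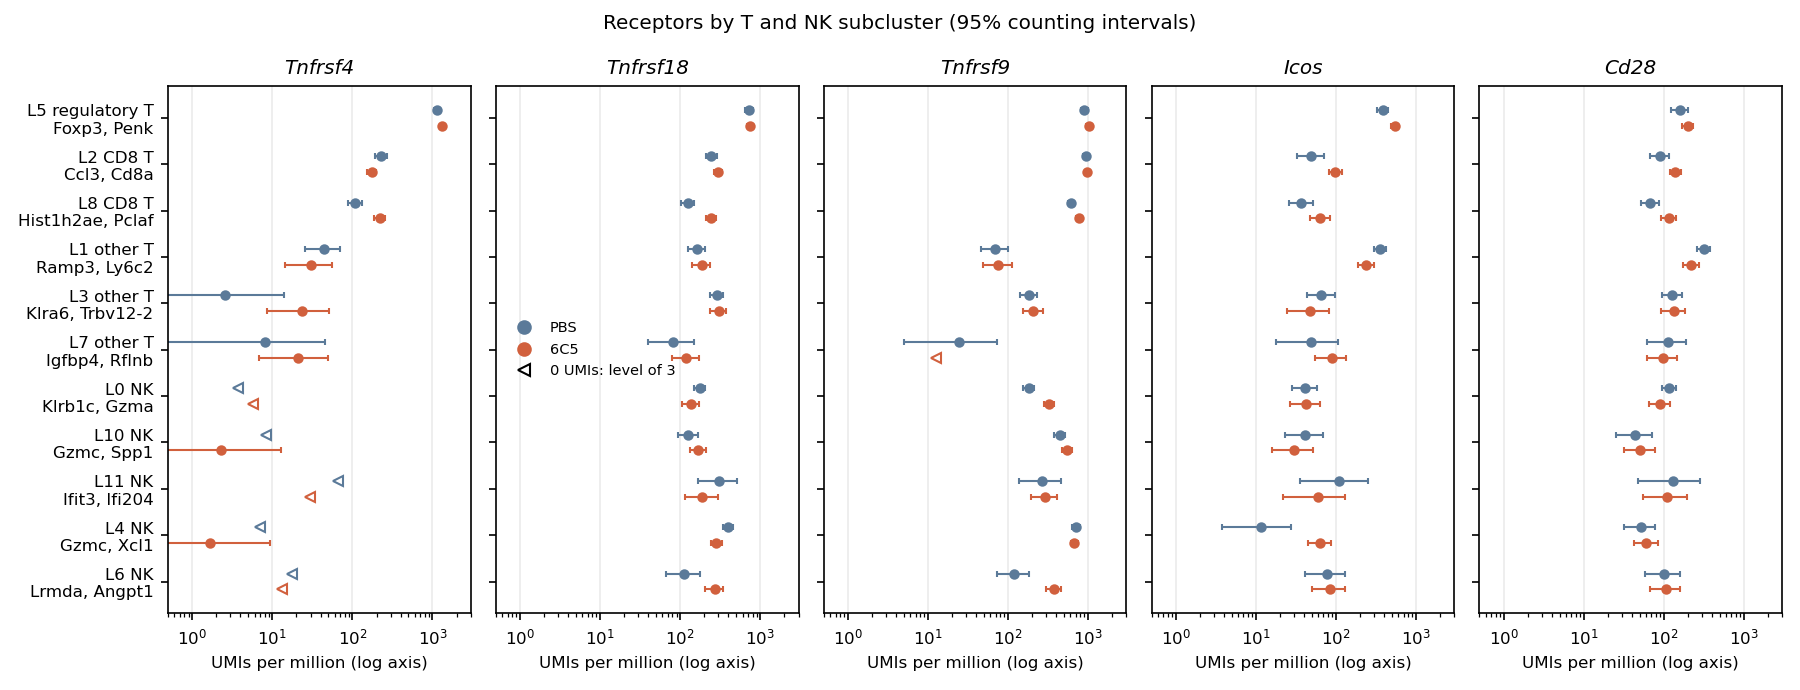
Levels of 5 receptors (CPM, log axis) in each T and NK subcluster, labelled with its class and 2 leading genes; points are library sums with 95% counting intervals, and open triangles mark 0 UMIs at the level of 3. Icos and Cd28 are higher in 6C5 in both CD8 T-like subclusters, while Tnfrsf4 goes from 227 to 174 CPM in one and from 108 to 219 CPM in the other.

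Among the ligands, the class sums of Tnfsf9 differed widely in macrophage-like cells. This ligand of 4-1BB stood at 153 CPM in PBS (148 to 159, 2987 UMIs in 1168 cells) and at 685 CPM in 6C5 (671 to 699, 9168 UMIs in 965 cells), 4.47-fold higher (4.28 to 4.66). In the same class the monocyte marker list, 9 of 9 genes detected in both libraries, summed to 280 CPM in PBS and 1111 CPM in 6C5, and the cycling list, 7 of 7 detected, to 1255 and 310 CPM. Tnfsf9 was at 737 and 726 CPM in monocyte-like cells, and the part of these lists in the result was not tested. The share of macrophage-like cells with a Tnfsf9 UMI after thinning was 10.3% (8.57 to 12.2) and 37.3% (34.3 to 40.5), with 8 and 3 shallower cells left out, and 38.9% and 72.6% without thinning. In other T-like cells, taken as a class that should lack it, the thinned share was 1.12% and 0%, the latter 0 of 187 cells, which allows up to 1.60%. Upward differences of 1.5-fold were seen for 7.59% of all genes in macrophage-like cells, downward ones for 28.5% and either for 36.1%. The median of all genes there was -0.31 on the log2 scale and -0.03 after TMM scaling, under which Tnfsf9 kept a difference past 1.5-fold.

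Different subclusters held most of the macrophage-like class in the libraries, and their Tnfsf9 levels differed. A subcluster led by Vcam1, Clec4b1 and Negr1 held 557 PBS and 5 6C5 cells and had Tnfsf9 at 141 and 189 CPM. One led by Gas6 and Lyve1, genes of resident tissue macrophages (228 and 74 cells), had 180 and 198 CPM, a ratio of 1.10 (0.948 to 1.27). Those led by Mmp12 and Ctsl (62 and 398 cells) and by Calhm6 and Cxcl9 (27 and 432 cells) had 484 and 730 CPM and 748 and 877 CPM, ratios of 1.51 (1.35 to 1.68) and 1.17 (1.04 to 1.33). The cycling subcluster (294 and 56 cells) had 73.5 and 212 CPM, a ratio of 2.89 (2.48 to 3.37). With the 5 subclusters weighted equally, Tnfsf9 was at 325 CPM in PBS and 441 CPM in 6C5, 1.36-fold higher. Subclusters that came mostly from 1 library may mark that library rather than a kind of cell.

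**Figure D3:**
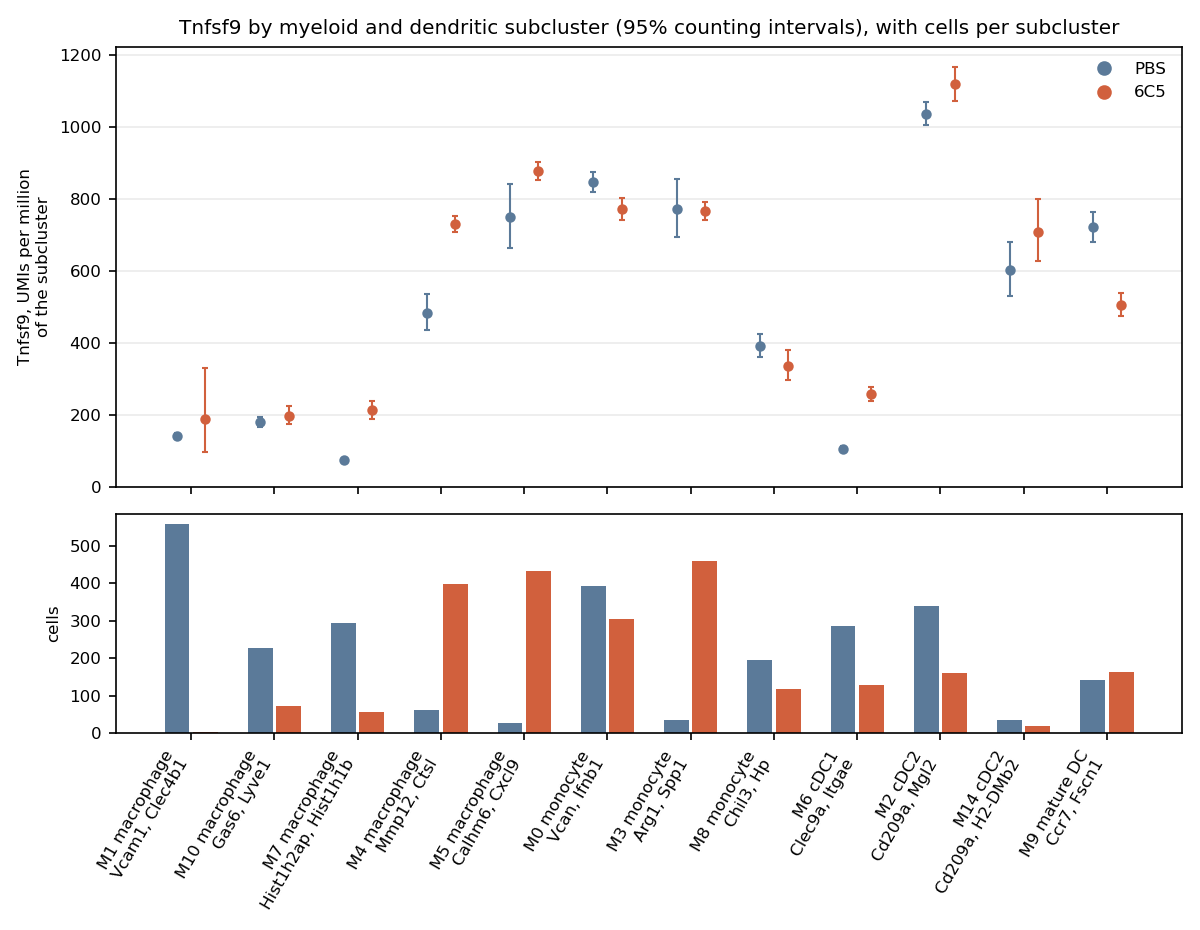
Tnfsf9 (upper panel, CPM with 95% counting intervals) and cells (lower panel) in each myeloid and dendritic subcluster of PBS and 6C5, labelled with its class and 2 leading genes. Macrophage-like subclusters with most PBS cells lie at 73.5 to 212 CPM in either library, and those with most 6C5 cells at 484 to 877 CPM.

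Monocyte-like and cDC2-like cells had high Tnfsf9 in both libraries. Monocyte-like cells (625 and 882) had a ratio of 0.986, and cDC2-like cells (375 and 183), conventional DCs that present antigen to CD4 T cells, at 993 and 1051 CPM. Tnfsf9 was higher in 6C5 in cDC1-like cells, the DCs specialised in cross-presentation to CD8 T cells (287 and 129 cells): 105 and 257 CPM, 2.44-fold (2.18 to 2.74), where 4.92% of all genes passed upward, 11.6% downward and 16.5% either way. In plasmacytoid DC-like cells (81 and 75) it stood at 76.7 and 219 CPM, 2.85-fold (2.06 to 3.99), where 7.85% passed upward with 13.0% downward and 20.8% in either direction. The share of those cells with a Tnfsf9 UMI was 24.7% (20 cells) in PBS and 22.7% (17 cells) in 6C5, and 4.94% (1.36 to 12.2) and 7.04% (2.33 to 15.7) after thinning, intervals that overlap. The macrophage marker list in that class summed to 1430 and 2510 CPM and the T list to 39.1 and 161 CPM, all 11 and 9 to 12 of 12 genes being detected, and their part in the difference was not tested. B-like cells had 31.2 and 60.9 CPM (24 UMIs in 13 of 256 cells and 40 UMIs in 10 of 240), 1.95-fold, a difference of 0.965 on the log2 scale that turned to -0.228 with at least 1000 UMIs per barcode. Of these levels free RNA was estimated to give 16.6 and 13.5 CPM, and the percentage of all genes higher there was 6.17%, lower 9.28% and either 15.5%. In mature DC-like cells, the Ccr7 and Fscn1 cluster of migratory DCs (142 and 164 cells), it was lower in 6C5, at 721 and 506 CPM, a ratio of 0.702 (0.644 to 0.765).

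Icosl, the ICOS ligand, was highest in mature DC-like cells, at 81.2 and 60.6 CPM, a ratio of 0.746 (0.577 to 0.963). It was lower in 6C5 past 1.5-fold in monocyte-like cells, at 14.9 CPM (94 UMIs) and 5.05 CPM (42 UMIs), a ratio of 0.338 (0.229 to 0.492), where 25.5% of all genes were and 33.0% differed in either direction. It was also lower in cDC2-like cells, at 63.9 and 39.7 CPM, a ratio of 0.620 (0.484 to 0.789), where 11.3% were and 17.6% differed in either direction. Weighted equally, the cDC2-like subclusters gave 0.708, short of 1.5-fold. Neutrophil-like cells (511 and 1058) went the other way, with 22.6 CPM (32 UMIs) and 42.7 CPM (125 UMIs), 1.89-fold higher (1.27 to 2.88), where 16.1% of all genes were higher, 31.0% lower and 47.1% either. Free RNA was estimated at 0.387 and 0.547 CPM of those neutrophil-like levels. In macrophage-like (14.1 and 9.71 CPM), cDC1-like (33.3 and 23.6 CPM) and B-like cells (61.1 and 41.1 CPM) the level was lower in 6C5 by less than 1.5-fold. With macrophage-like subclusters weighted equally the ratio was 1.05, so the direction there turned. In the monocyte-like subcluster led by Vcan and Ifnb1 (392 and 304 cells) the ratio was 0.370 (0.203 to 0.637).

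Tnfsf4, the OX40 ligand, was highest in mature DC-like cells. Mature DC-like cells had 96.5 and 65.2 CPM (158 and 126 UMIs), a ratio of 0.676 (0.531 to 0.860) that stayed just short of 1.5-fold, and held 60.1% and 46.7% of its UMIs in named cells. CD8 T-like cells came next, at 31.3 and 35.4 CPM. Plasmacytoid DC-like cells had 11 UMIs in PBS, all in 1 cell, and 0 in 6C5. Macrophage-like cells had 0.565 CPM (11 UMIs) and 2.17 CPM (29 UMIs), a ratio of 3.84 (1.86 to 8.51), levels at which free RNA was estimated to give 0.231 and 0.251 CPM.

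Mature DC-like cells also held receptors of the TNF family, with Tnfrsf4 at 120 and 105 CPM, Tnfrsf9 at 196 and 147 CPM and Tnfrsf18 at 88.6 and 75.1 CPM. Cd3e lay at 1.22 and 1.04 CPM there and Foxp3 at 0 in both libraries. All 6 members with at least 30 UMIs in this class had a ratio under 1, from 0.676 to 0.874, and 0 of them passed 1.5-fold, as 18.2% of all genes did in either direction, 11.3% upward and 6.88% downward. Their median log2 ratio was -0.42, that of all 7355 genes tested 0.03. With members and list genes among the variable genes used for clustering, the log2 ratio of Tnfrsf4 became 0.0278 and that of Tnfrsf18 was -3.38e-07, so that not all 6 were lower in that alternative. Tnfrsf4 was far scarcer in the other DC classes, with 5 and 2 UMIs in cDC2-like and 3 and 1 UMIs in cDC1-like cells.

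Lymphocyte receptors in the myeloid classes were at low levels. In macrophage-like cells Tnfrsf18 (2.31 and 0.821 CPM), Cd28 (2.67 and 1.49 CPM) and Tnfrsf4 (1.34 and 0.747 CPM) passed 1.5-fold downward. Free RNA was estimated to give 1.62 and 1.99 CPM of Tnfrsf18, 0.923 and 0.963 CPM of Cd28 and 1.27 and 1.59 CPM of Tnfrsf4, so the levels of Tnfrsf18 and Tnfrsf4 lie at or near background and are not read as expression. In 6C5 the estimates for Tnfrsf18 and Tnfrsf4 exceed the measured levels, so the estimate ran too high there. For Cd28 that estimate is 34.6% of the level in PBS and 64.5% in 6C5, and its log2 ratio of -0.838 became -1.72 with free RNA subtracted. With macrophage-like subclusters weighted equally, Tnfrsf4 had a ratio of 1.26, the opposite direction. In monocyte-like cells Tnfrsf9 was at 6.99 CPM (44 UMIs) and 14.9 CPM (124 UMIs), 2.13-fold higher, where 7.48% of all genes were, with free RNA estimated at 5.85 and 4.86 CPM. Its level within the Arg1 and Spp1 subcluster (37 and 459 cells) was 41.7 and 19.3 CPM and within the Vcan subcluster 5.45 and 10.7 CPM. The part of the makeup of the class in the ratio of class sums was not tested. With monocyte-like subclusters weighted equally the ratio was 0.760 for Tnfrsf9 and 0.423 for Cd28, whose class sums gave 1.56 (2.38 and 3.73 CPM). In cDC2-like cells Tnfrsf9 was at 4.42 and 11.3 CPM (19 and 26 UMIs), a ratio of 2.57 (1.37 to 4.91), where 6.31% of all genes were higher, and 1.41 with subclusters weighted equally. Free RNA was estimated at 49.0% of that level in PBS and 18.2% in 6C5.

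**Figure D4:**
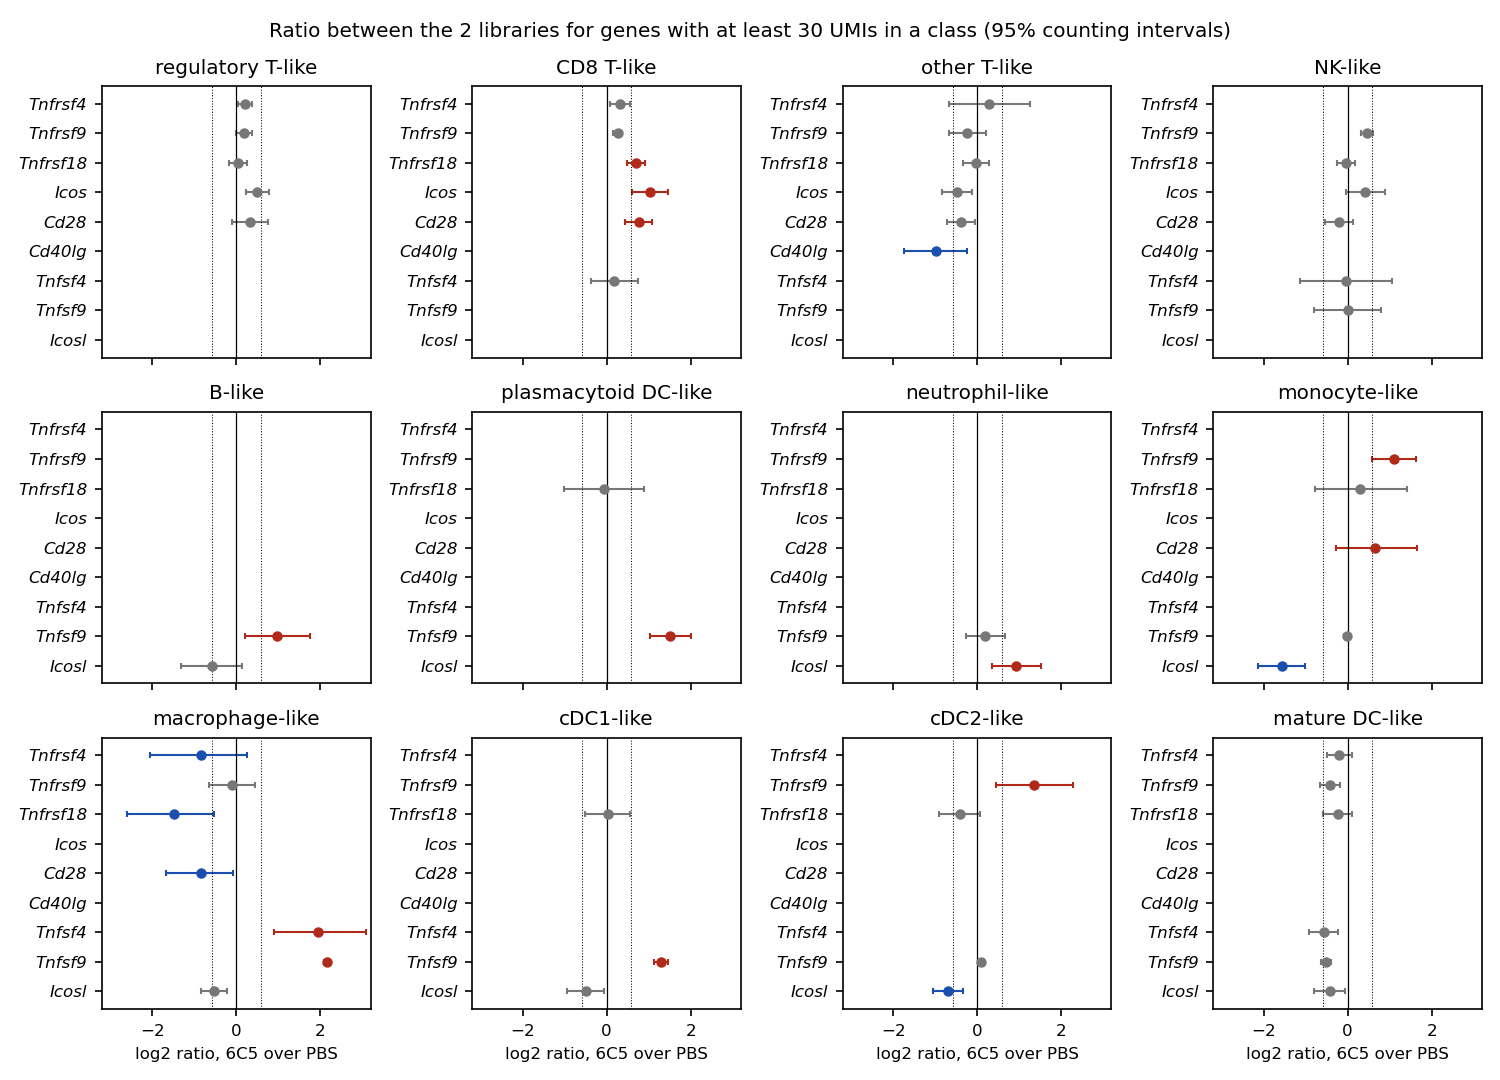
log2 ratio of 6C5 over PBS for the members with at least 30 UMIs over both libraries, by class, with 95% counting intervals; dotted lines mark 1.5-fold, red points are higher in 6C5 and blue points lower past it. Icos, Cd28 and Tnfrsf18 are higher in CD8 T-like cells and Tnfsf9 in macrophage-like, cDC1-like and plasmacytoid DC-like cells, while all 6 points of mature DC-like cells lie left of 0.

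In all, 54 pairs of a member and a class had at least 30 UMIs. In T and NK classes 4 of 23 passed 1.5-fold, and in the other classes 14 of 31 did. The shares of all genes that passed, averaged over the same classes with the weight of the members' pairs, were 16.5% and 26.2%. The 14 include macrophage-like Tnfrsf4 and Tnfrsf18, which lay at or near free RNA. They also include monocyte-like Tnfrsf9, with free RNA estimated at 83.6% of the PBS level, and B-like Tnfsf9, which reversed in an alternative. Fewer passed with at least 100 UMIs per gene, a minimum that also leaves fewer pairs to measure. Related genes were read from 4 lists: other receptors and ligands of the 2 families (15 genes), TRAF adaptors and apoptosis inhibitors (10), NF-kappaB genes (10) and CD28 or ICOS signalling genes (13). Of their pairs with a class, 87 passed in either direction. In the order of the lists these were 33 of 80, 20 of 107, 15 of 118 and 19 of 130 measured pairs. The shares of all genes, weighted as above, were 23.2%, 21.9%, 22.6% and 22.5%. Of the NF-kappaB subunits and inhibitors, 12 of 118 measured pairs were higher in 6C5 and 3 lower, where all genes weighted in that way gave 8.04% higher and 14.6% lower. In macrophage-like cells 4 of 10 were higher and 0 lower, with a list median of 0.45 on the log2 scale against -0.31 for all genes: Nfkbia (1280 and 2507 CPM), Nfkbib (94.7 and 176 CPM), Nfkbie (27.6 and 76.9 CPM) and Tnfaip3 (285 and 532 CPM), which encode inhibitors of NF-kappaB signalling. Of all genes there, 7.59% were higher and 28.5% lower. These are class sums, the macrophage-like subclusters differed between the libraries, and the part of that makeup was not tested. In cDC1-like cells 4 of 10 were higher and 0 lower, Nfkbie, Nfkbia, Tnfaip3 and Nfkb2, with ratios from 1.73 to 2.1, where 4.92% of all genes were higher and 11.6% lower. In T and NK classes 0 of 39 pairs were higher, against 7.17% of all genes, and Nfkbia was lower in CD8 T-like cells, at 518 and 334 CPM (ratio 0.645).

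Of the TRAF adaptors and apoptosis inhibitors, 9 of 107 pairs were higher and 11 lower, against 7.85% and 14.1% of all genes. In macrophage-like cells Traf1, an adaptor of OX40 and 4-1BB, was at 31.9 and 118 CPM (3.71-fold, 3.38 to 4.08), Bcl2l1 at 43.7 and 86.2 CPM and Traf3 at 27.6 and 46.2 CPM, and in cDC1-like cells Traf1 was at 150 and 277 CPM. All macrophage-like values of list genes, Cd40 below included, are sums over subclusters that differed between the libraries. The part of that makeup in them was not tested. In CD8 T-like cells, where Icos, Cd28 and Tnfrsf18 were higher, 0 of 10 genes of this list were higher and Traf2 was lower (47.3 and 27.1 CPM). Of all genes in that class, 11.3% were higher and 6.73% lower, so few of 10 would be looked for in either direction. Of the CD28 and ICOS signalling genes 4 of 130 pairs were higher and 15 lower, against 7.92% and 14.6% of all genes. In CD8 T-like cells 0 of 12 measured passed in either direction, where 18.0% of all genes did, and in regulatory T-like cells Nfatc1, a transcription factor of T cell activation, was lower (107 and 63.3 CPM). Of the other CD28-family and TNF-family genes, 16 of 80 pairs were higher and 17 lower, against 7.86% and 15.4% of all genes. In macrophage-like cells 6 of 10 measured genes of this list were higher and 1 lower, where 7.59% and 28.5% of all genes were. In cDC1-like and in cDC2-like cells 2 of 8 were higher and 2 lower. Of all genes, 4.92% and 6.31% were higher there and 11.6% and 11.3% lower. Cd40, the receptor for CD40 ligand, was higher in macrophage-like (61.3 and 134 CPM), cDC1-like (38.9 and 85.1 CPM) and cDC2-like cells (109 and 165 CPM). Ctla4, the inhibitory relative of Cd28, was at 1425 and 2056 CPM in regulatory T-like cells, a ratio of 1.44 (1.31 to 1.59).

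**Figure D5:**
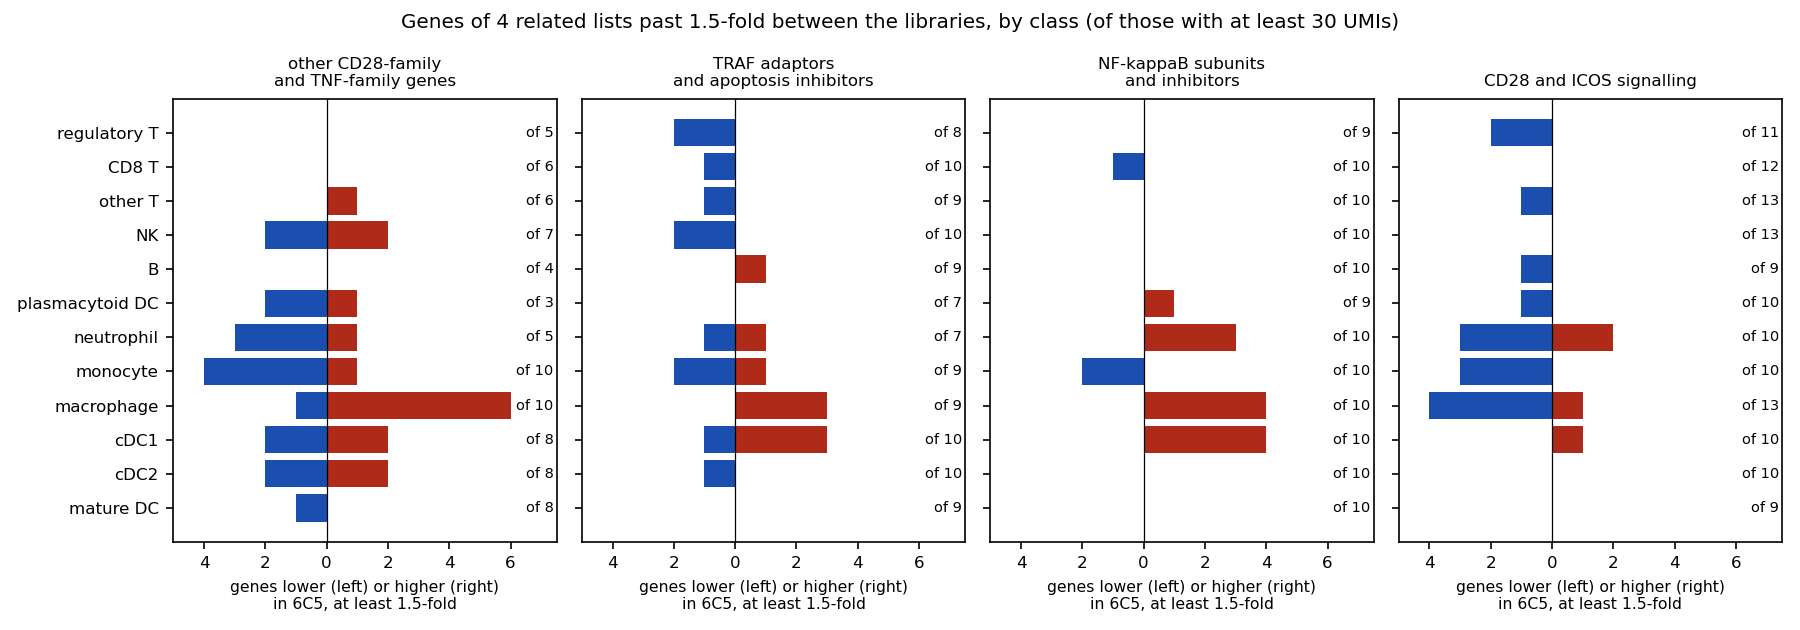
Number of genes of 4 related lists that were higher (red, right) or lower (blue, left) in 6C5 by at least 1.5-fold in each class, of the number measured there. Macrophage-like and cDC1-like cells each have 4 NF-kappaB genes higher and 0 lower, and CD8 T-like cells have 0 higher in all 4 lists. Of all genes, 7.59%, 4.92% and 11.3% were higher in macrophage-like, cDC1-like and CD8 T-like cells.

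The genes most like each member over the 26 sums of 13 classes and 2 libraries were found by Pearson's r of log2(CPM + 1) among 13250 genes with at least 100 UMIs. These points share libraries and depth, and r is given as a description. Tnfrsf4 was most like Ikzf4 (0.897), a transcription factor on the regulatory T marker list, then Slamf1 (0.868) and Eid2 (0.852). Tnfrsf9 was most like Cd247 (0.898), the CD3 zeta chain, Ccdc184 and Tesc. Tnfrsf18 was most like Dkkl1 (0.937), Icos (0.901) and Trac (0.893), and Icos like Camk4 (0.953), Trac (0.948) and Zap70 (0.947). Cd28 was most like Cd27 (0.97), another costimulatory receptor of the TNF family, Cysltr2 and Zap70. Tnfsf9 was most like Ptpro (0.919), Clic4 (0.914) and Stom (0.909), Icosl like Nuak2 (0.912) and Tnfsf4 like Lad1 (0.853). Cd40lg, with 97 UMIs, was under the minimum. Between ligand and receptor of a pair, r was 0.405 for Tnfsf4 and Tnfrsf4, -0.508 for Tnfsf9 and Tnfrsf9 and -0.603 for Icosl and Icos.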

How the data were processed

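The groups PBS and 6C5 were compared, with 1 library each. The deposited matrices hold UMI counts per gene and barcode; per the file headers the authors made them with Cell Ranger 7.1.0, whereas version 2.1.1 and the build mm10 stand in the submitters' processing notes. No source used here says if introns were counted. Barcodes were required to have 500 UMIs or more, 300 genes or more and a mitochondrial share of 10% or less (13992 and 13541). Doublets were removed by rank of the Scrublet score at 0.8% per 1000 cells (1566 and 1467), since the tool's own threshold marked 1 and 0. Both libraries were clustered together with scanpy 1.11.5 and leidenalg 0.10.2 (2000 variable genes, 30 components, 15 neighbours, resolution 1). Clusters needed 3 markers for a name. Bounds set after the data were seen left out clusters close to free RNA (r of 0.97 or more with barcodes of 10 to 100 UMIs) or under a median of 1000 UMIs, and subclusters with 0.4 or more of outside markers. The free RNA part of an immune class was estimated from the profile of those low-UMI barcodes. It was scaled so that all melanoma and erythroid marker UMIs of the class counted as free RNA, which can make it too high.

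Levels are UMIs summed over a class and scaled to 1000000 UMIs of that class (CPM), with exact Poisson intervals. Ratios have exact conditional binomial intervals and shares Clopper-Pearson intervals, all at 95% (scipy 1.17.1). They cover counting error only. A difference was called at 1.5-fold with at least 30 UMIs over both libraries in 12 classes with at least 30 cells in each, and a count of 0 allows up to 3 UMIs or cells. Alternatives were other UMI minimums, no doublet removal, resolution 2, other variable genes, separate clustering, TMM scaling (edgeR 4.0.16), subtraction of free RNA, other folds and thinning to 2000 UMIs. The scripts were tested on simulated data. Members and lists were chosen with earlier results of these data known. Besides the 9 members, the rule for names took up to 4 genes of a list per class with the largest difference past 1.5-fold, and the 3 genes most like each member. Ctla4 in regulatory T-like cells was named outside that rule, after its value was seen.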

Additional observations from a re-analysis of the deposited data

Results flagged for a closer look

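Some members differed between the libraries in opposite directions in different classes, and none of these differences between classes was tested. The log2 ratio of Tnfrsf18 was 0.69 in CD8 T-like cells and -1.49 in macrophage-like cells, where its level was near that of free RNA. Cd28 had 0.76 in CD8 T-like and -0.84 in macrophage-like cells, the latter from 52 and 20 UMIs. Icosl had 0.92 in neutrophil-like and -1.56 in monocyte-like cells.

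A signal also lay outside the classes compared. Melanoma-like barcodes had Tnfrsf9 at 5.74 CPM in PBS (35 UMIs in 19 of 180 barcodes) and at 38.2 CPM in 6C5 (703 UMIs in 94 of 401), a ratio of 6.66 (4.74 to 9.64). The 10 highest barcodes held 74.3% and 54.3% of these UMIs. Barcodes without UMIs of Cd3d, Cd3e, Cd3g, Trac or Ncr1 (173 and 378) had 5.90 and 30.3 CPM. The T marker list summed to 4.59 and 12.8 CPM and the NK list to 3.77 and 15.1 CPM in the class, and their part in the result was not tested.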

How the results depend on the processing

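Each group has 1 library, so no library could be left out. No paired analysis was possible because the groups share no replicates and no test was run. Of the 18 member and class pairs past 1.5-fold, 13 stayed past it with the same sign in every alternative listed under the processing that gave a value, and 16 kept their sign. The 4 pairs of T and NK classes became 8 when the libraries were clustered separately and 1 at 2-fold. The 14 pairs of the other classes became 8 at 2-fold, 24 with at least 10 UMIs per gene and 7 with at least 100 UMIs. The 87 list gene pairs became 25 at 2-fold and 54 with at least 100 UMIs. These settings also change the pairs measured or the share of all genes that pass. Those were not worked out for them, so such counts cannot be set against all genes. Tnfsf9 in B-like cells reversed to -0.228 (log2) with at least 1000 UMIs per barcode, and Tnfrsf18 in macrophage-like cells to 0.909 when the libraries were clustered separately. With subclusters weighted equally, an alternative chosen after seeing the data, monocyte-like Tnfrsf9 reversed to -0.397, monocyte-like Cd28 to -1.24 and macrophage-like Tnfrsf4 to 0.334. Of 14 called pairs with a value under that weighting, 7 stayed past 1.5-fold with the same sign, 3 reversed and 4 fell under it: macrophage-like Tnfsf9 (0.439), CD8 T-like Tnfrsf18 (0.554), cDC2-like Tnfrsf9 (0.493) and cDC2-like Icosl (-0.498). The cause was not tested. Over the other alternatives Tnfsf9 in macrophage-like cells ranged from 2.02 to 2.44, against 1.80 to 2.52 for Tnfsf4 there, which was 1.41 with equal weights. In CD8 T-like cells Icos ranged from 1.00 to 1.12, Cd28 from 0.724 to 0.796 and Tnfrsf18 from 0.594 to 0.728, and with equal weights Icos was 0.92 and Cd28 0.69. In regulatory T-like cells Icos ranged from -0.0375 to 0.622, Tnfrsf4 from -0.0344 to 0.331, Tnfrsf9 from -0.203 to 0.309 and Tnfrsf18 from -0.408 to 0.164, the lowest values being those of separate clustering. TMM scaling moved the median of all genes by over 0.1 in neutrophil-like (-0.23 to 0.13), monocyte-like (-0.26 to -0.00325), macrophage-like (-0.31 to -0.03), regulatory T-like (-0.04 to 0.08) and plasmacytoid DC-like cells (-0.07 to 0.03). Alternatives gave no value in 10 cases, mostly low receptor counts in macrophage-like and monocyte-like cells.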

Other observations

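The barcodes left out for mixed lineage markers (323 and 350) carried members too. They had Tnfrsf4 at 67.0 and 168 CPM, Tnfrsf9 at 171 and 282 CPM and Tnfsf9 at 233 and 518 CPM, as sums over those barcodes. Within NK-like cells, Icos in the subcluster led by Gzmc and Xcl1 stood at 11.7 CPM in PBS (5 UMIs in 40 cells) and 64.2 CPM in 6C5 (38 UMIs in 64 cells), a ratio of 5.49 (2.16 to 17.9). A T and NK subcluster without a class name, led by Galnt18 and Gm26917 (18 and 39 cells), had Tnfrsf9 at 1152 and 1158 CPM and Icos at 82.3 and 247 CPM. In the cDC2-like subcluster led by Cd209a and Mgl2 (338 and 162 cells), Icosl was at 64.0 and 37.0 CPM, a ratio of 0.579 (0.438 to 0.756). These were chosen after their values were seen and no test was run.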
